A study of Homo sapiens with 6 samples.

Results

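The tetraspanins are a family of small cell-surface proteins, and their mRNA was followed in H1299 lung cancer cells with and without knockdown of Ephexin1. The members were found by gene symbol alone, as the TSPAN genes with a number together with CD9, CD37, CD53, CD63, CD81, CD82, CD151, PRPH2, ROM1, UPK1A and UPK1B. The rule uses names only, but the family was taken up with earlier results of these data known. This gave 33 of the 26255 genes listed in the expression table. Of the 33, 28 passed the filter on low values (0.1 FPKM or more in 3 or more libraries) and were tested. The other 5 (CD53, TSPAN2, TSPAN16, TSPAN18 and TSPAN32) were too low to be tested.

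Each tetraspanin crosses the membrane several times and exposes a small and a large loop at the surface. The proteins bind each other and laterally bind integrins, immunoglobulin-superfamily proteins, growth factor receptors and metalloproteases, and so build patches of membrane known as tetraspanin-enriched microdomains. They are known for organising cell adhesion, migration and the release of exosomes, and several members are used as exosome markers. Others have tissue-bound roles, such as PRPH2 and ROM1 in photoreceptor discs and the uroplakins UPK1A and UPK1B in the urothelium of the bladder.

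There were 6 libraries, 3 of NCI-H1299 cells that carried a control shRNA (shControl) and 3 of cells that carried an shRNA against Ephexin1 (shEphexin1). Ephexin1, encoded by NGEF, is a guanine nucleotide exchange factor for small GTPases. NCI-H1299 is a line of human non-small cell lung cancer, and all 6 cultures were grown in RPMI-1640 with serum and carried a pSilencer plasmid, in the neo form in the labels and in the hygro form in the methods. The knockdown cells are described as stable clones, and the 3 shEphexin1 names share a stem, so all 3 may come from a single clone. P values then measure only the spread between these libraries. Total RNA was made into stranded libraries, and the values are FPKM, fragment numbers scaled by transcript length and by library size, which allow levels to be set side by side between genes. The reads behind each value are not known, so no counting error can be given.

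NGEF, the target of the shRNA, held 13.3, 11.7 and 16.4 FPKM in the shControl libraries and 9.81, 8.25 and 10.5 FPKM in the shEphexin1 libraries. The groups did not overlap and the shEphexin1 mean was 68.9% of the shControl mean, but the log2 difference of -0.53 (SE 0.163) was under a fold of 2 and did not pass the test (limma, adjusted p = 0.103). The paper checked the knockdown at the protein level by western blot, which these RNA values do not measure. With each library corrected for GC content and transcript length, NGEF passed the adjusted p (0.00175) at a log2 difference of -0.56, still under a fold of 2. Of the line's markers, VIM was at 2165 and 2492 FPKM (means of shControl and shEphexin1), KRT18 at 88.9 and 46.2 FPKM and KRT8 at 6.78 and 3.13 FPKM. The keratin differences were not called (adjusted p = 0.0439 and 0.0304 by limma), and their part in the results was not tested. PTPRC and CD3E, which define leukocytes and T lymphocytes, were at 0 in all 6 libraries. SAG of photoreceptors and UPK3A of the urothelium were also at 0 throughout. From the same lists, UPK3B was at 1.88 to 2.80 FPKM in shControl and 1.96 to 4.84 FPKM in shEphexin1. PDE6B was at 0.219 to 0.498 FPKM in shControl and 0.148 to 0.390 FPKM in shEphexin1. The summed FPKM of the 6 leukocyte markers was between 0.522 and 1.71 in shControl and between 1.05 and 1.79 in shEphexin1. The 4 retina markers summed to between 0.219 and 0.498 in shControl and between 0.148 and 0.390 in shEphexin1. The 3 urothelium markers summed to between 1.99 and 2.80 in shControl and between 2.04 and 4.98 in shEphexin1.

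Tetraspanin mRNA in H1299 cells was dominated by a few members. The mean over the 6 libraries was at least 10 FPKM for 9 of the 33 members, between 1 and 10 FPKM for 11 and under 1 FPKM for 13. CD63, a tetraspanin of late endosomes and exosomes, stood first in every library. CD9 and CD151 filled the next 2 places and TSPAN4, known from migrasomes, the fourth place in every library. CD9 and CD151 exchanged places in replicate 3 of both groups. At the other end, TSPAN2 and TSPAN32 were listed at 0 in all 6 libraries. TSPAN32 and CD53 are tetraspanins of blood cells, and CD53 was above 0 in 1 library of each group, at 0.0606 and 0.149 FPKM. TSPAN16 reached at most 0.121 FPKM and TSPAN18 at most 0.0301 FPKM.

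The summed level of the family overlapped between the groups. It was 1131, 926 and 1193 in the shControl libraries and 1206, 937 and 1220 in the shEphexin1 libraries, as summed FPKM. The sum was 0.176% ± 0.00975 (SD, n = 3) of all FPKM in shControl and 0.202% ± 0.0179 (SD, n = 3) in shEphexin1, again with overlap.

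Within the sum, the shares of CD63 and CD82 moved. CD63 made up 47.5, 48.4 and 46.2% of it in the shControl libraries and 36.7, 38.4 and 36.2% in the shEphexin1 libraries. The share of CD82 was 1.81, 1.74 and 2.19% in shControl and 7.03, 5.95 and 7.89% in shEphexin1. Neither pair of ranges overlapped, and an exact permutation test over 3 against 3 libraries cannot give a p below 0.1. The shares of the other members of at least 10 FPKM (CD9, CD151, TSPAN4, CD81, TSPAN17, TSPAN3 and TSPAN5) overlapped between the groups. Since the shares of a library add up to 100%, they are not independent of each other.

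**Figure D1:**
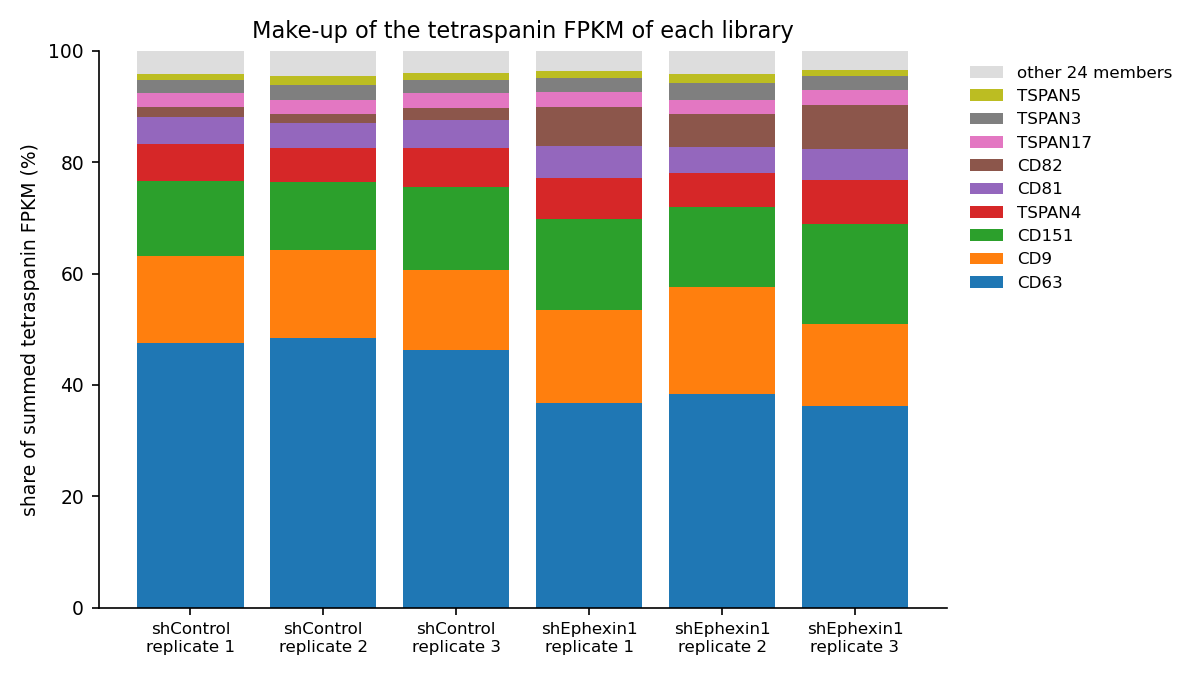
Stacked bars of the share of the summed tetraspanin FPKM (percent) held by the 9 members with a mean of at least 10 FPKM and by the other 24 members together, for each library. The CD63 segment is between 46.2 and 48.4% in shControl and between 36.2 and 38.4% in shEphexin1, and the CD82 segment is wider in all 3 shEphexin1 libraries.

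The comparison asked which tetraspanins differ when Ephexin1 is knocked down. In the fit over all 16020 genes tested, a call needed an adjusted p no higher than 0.025 together with a fold of 2 or more. Of the 28 tetraspanins tested, 2 were called, CD82 upward and TSPAN7 downward, where 1.89% of all genes tested were called (0.893% upward and 0.999% downward). The adjusted p alone was passed by the same 2 members and by 3.41% of all genes tested. In 12 members the groups did not overlap, 7 higher and 5 lower in shEphexin1, against 28.3% of all genes tested (12.8% higher and 15.4% lower). An unadjusted p under 0.05 was found for 8 members and for 23.3% of all genes tested. TSPAN8, listed at 0 in the whole shEphexin1 group, passed the filter through shControl alone and had to differ for that reason. Without it, the groups did not overlap in 11 of 27 members (7 higher and 4 lower), and 7 had an unadjusted p under 0.05. The coefficient was above 0 for 18 members and for 48.9% of all genes tested. The median log2 fold change of the 28 was 0.11, beside -0.0093 over all genes tested, and the median size regardless of sign was 0.26, beside 0.24. The median of the 28 does not depend on the value given to TSPAN8, which lies below the median whatever bound it is given. Without TSPAN8 the median of the 27 was 0.12.

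Among the 9 members of at least 10 FPKM, 8 had a coefficient above 0 and CD63 had one below 0. Over all genes at that level, 2580 of 6684 had a coefficient above 0. Apart from CD82, no member of this group of 9 was called. CD151, TSPAN4, CD81 and CD82 lie on the same chromosome arm, 11p, whose median was 0.03. Of the 48 other genes tested within 1000000 bases of CD151, 36 had a coefficient above 0, and TSPAN4 had the same counts. Near CD81 it was 11 of 19, and near CD82 it was 4 of 9. The part of this shared location was not tested.

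**Figure D2:**
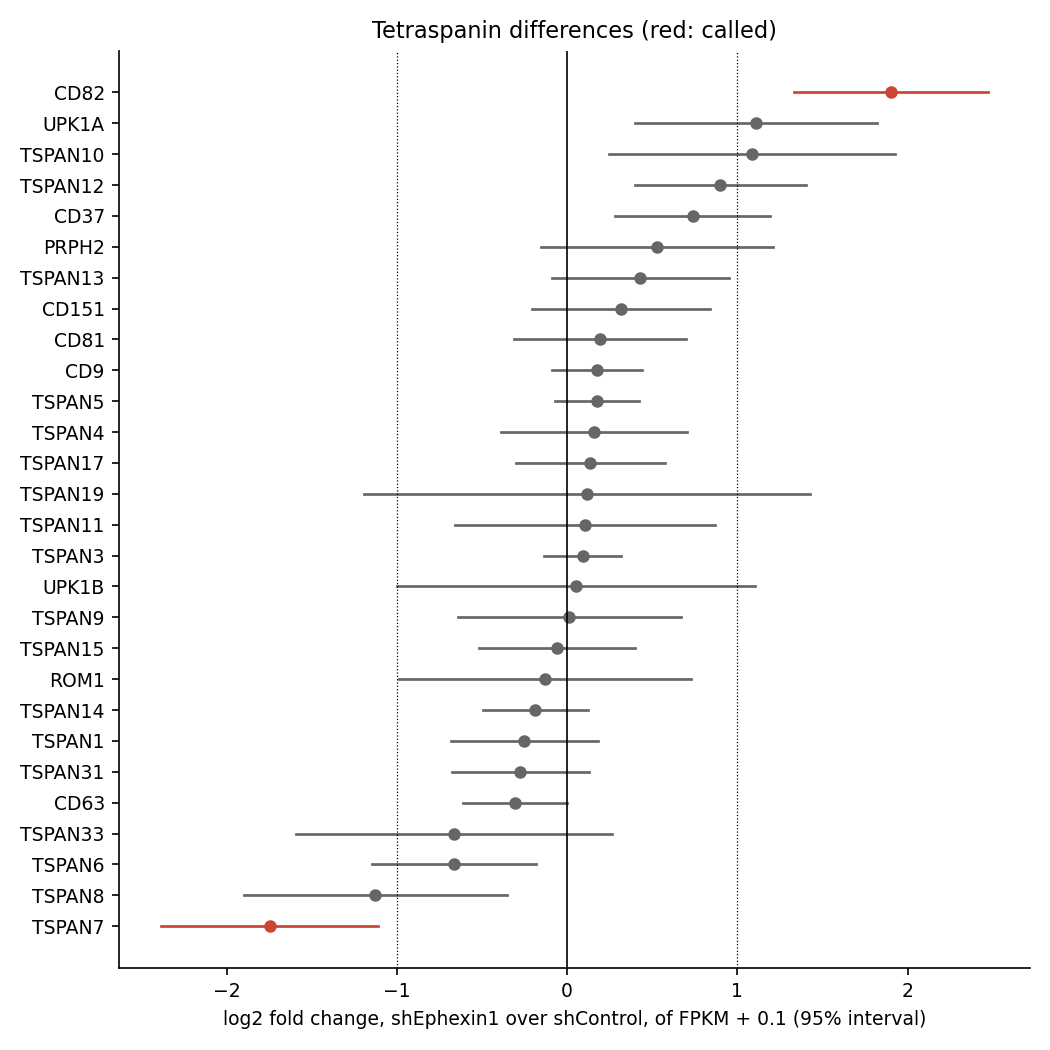
Log2 fold change of FPKM + 0.1 (shEphexin1 over shControl) of the 28 tested tetraspanins with its 95% interval, called members in red and dotted lines at a fold of 2. CD82 at 1.90 and TSPAN7 at -1.75 are the called members, and the place of TSPAN8 depends on the pseudocount because its shEphexin1 libraries are at 0.

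CD82, also known as KAI1, restrains cell motility and is known as a metastasis suppressor. The shControl libraries held 20.5, 16.1 and 26.1 FPKM of CD82 and the shEphexin1 libraries 84.8, 55.8 and 96.2 FPKM. The lowest shEphexin1 library, replicate 2, was above the highest shControl library, replicate 3. The means were 20.9 ± 4.99 and 78.9 ± 20.8 FPKM (SD, n = 3), a ratio of 3.78. CD82 rose by a log2 fold change of 1.90 (SE 0.245, 95% interval 1.33 to 2.47, limma adjusted p = 0.00765). In the order of the family it moved from the eighth place in all 3 shControl libraries to the fifth in all 3 shEphexin1 libraries, above CD81, TSPAN17 and TSPAN3. In bulk RNA a higher level in every cell and a larger number of expressing cells cannot be told apart. With single libraries left out, the log2 fold change was between 1.73 and 2.13. The call was lost without shControl replicate 1 (adjusted p = 0.0508), shEphexin1 replicate 1 (adjusted p = 0.0476) or shEphexin1 replicate 3 (adjusted p = 0.0328).

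CD82 lies on the plus strand of chromosome 11 (GRCh37, chr11:44585977-44641908), with CD82-AS1 on the other strand of the same interval. The kit marks strand, but the sources used here do not say whether the counting used it, so reads of the antisense RNA cannot be told apart from those of CD82. Within 1000000 bases of CD82, 9 other genes were tested and none of them was called, with log2 fold changes between -1.08 and 0.58 and a median of -0.09. The median over the 218 expressed genes of chromosome arm 11p was 0.03.

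The promoter of CD82 is shown because CD82 is the member that was called upward. RefSeq (GRCh38.p14) gave a promoter for 25 of the 33 members, from 250 bases before to 50 after the start. That of CD82 lies at chr11:44565413-44565712 on the plus strand and reads, with its copies of GGGCGG (a GC box, the motif of SP1) in capitals, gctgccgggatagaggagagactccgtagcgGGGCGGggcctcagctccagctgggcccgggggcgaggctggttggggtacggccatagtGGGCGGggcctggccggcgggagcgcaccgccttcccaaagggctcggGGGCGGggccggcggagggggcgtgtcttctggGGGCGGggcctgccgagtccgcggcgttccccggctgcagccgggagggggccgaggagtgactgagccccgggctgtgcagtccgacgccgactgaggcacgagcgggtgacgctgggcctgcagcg. The 300 bases hold 33 CpG and are 76.7% G or C, beside medians of 14 CpG and 58.7% over the 35116 promoters of the table. GGGCGG was searched on both strands and found at 4 places, and 45.0% of all promoters hold it. TGANTCA, the motif of AP-1, and TATAAA, the TATA box, were searched on both strands and not found, and 7.71% and 11.5% of all promoters hold them. No found motif overlapped another. These are descriptions of letters, and no measurement of binding was made in the data used here.

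TSPAN7 is a tetraspanin best known from neurons, where it takes part in the trafficking of glutamate receptors. The shControl libraries held 1.86, 1.58 and 2.17 FPKM of TSPAN7 and the shEphexin1 libraries 0.659, 0.525 and 0.314 FPKM. Every shControl library was above every shEphexin1 library. The means were 1.87 ± 0.299 and 0.500 ± 0.174 FPKM (SD, n = 3), so that shEphexin1 was at 26.7% of shControl. TSPAN7 fell by 1.75 on the log2 scale (SE 0.273, 95% interval -2.39 to -1.11, limma adjusted p = 0.0150). The study picked TSPAN7 from these libraries as a K-Ras target gene and measured it again by RT-qPCR, so its direction here is not independent evidence. At this low level the pseudocount mattered. With 1 FPKM added, the difference was -0.94 on the log2 scale (adjusted p = 0.00975), below a fold of 2. Of the fits with 1 library left out, the call was kept without shEphexin1 replicate 2 (adjusted p = 0.0236) and lost in the other 5, with adjusted p values from 0.0328 (without shControl replicate 2) to 0.0851 (without shControl replicate 1). Without shControl replicate 3, shEphexin1 replicate 1 and shEphexin1 replicate 3, the adjusted p values were 0.0628, 0.0393 and 0.0383. The difference kept its sign in all of them, between -1.94 and -1.50.

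TSPAN7 lies on the plus strand of the short arm of chromosome X (GRCh37, chrX:38420795-38548174). The annotation has a second coding gene, ENSG00000250349, on the same strand of that interval, so the share of reads given to TSPAN7 is uncertain. Within 1000000 bases, 8 other genes were tested, 6 with a coefficient above 0 and 2 below, and none of them was called. Their log2 fold changes were between -0.41 and 0.47.

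The remaining members with an unadjusted p under 0.05 were TSPAN12, CD37, UPK1A, TSPAN8, TSPAN6 and TSPAN10. In each of them the groups did not overlap, and none of them passed the adjusted threshold, so their values are given without a call. The folds nearest the threshold on the upper side were those of TSPAN10 and UPK1A, and on the lower side those of TSPAN12, CD37 and TSPAN6. TSPAN8 is not placed in this order, since its fitted value is set by the pseudocount.

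TSPAN12 is a co-receptor of Norrin signalling through FZD4 in retinal vessels. It was at 1.26, 1.88 and 1.12 FPKM in shControl, against 2.66, 2.73 and 2.61 FPKM in shEphexin1. The shEphexin1 libraries lay close together and above the highest shControl library, which was replicate 2. The log2 fold change was 0.90 (SE 0.215, limma adjusted p = 0.0510). With replicate 2 left out of both groups, TSPAN12 was called (log2 fold change 1.09, adjusted p = 0.0132). TSPAN12 lies on chromosome arm 7q, whose 408 expressed genes had a median of 0.30, and with the arm medians subtracted its log2 fold change was 0.60 (adjusted p = 0.175).

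CD37 is a tetraspanin of B lymphocytes. The shControl libraries held 1.02, 1.02 and 0.864 FPKM and the shEphexin1 libraries 1.47, 1.598 and 2.02 FPKM, all above shControl. The log2 fold change was 0.74 (SE 0.194, limma adjusted p = 0.0665). Of the leukocyte markers, PTPRC and CD3E were at 0 in the same libraries, and CD14 was at most 0.164 FPKM. CD79A of B cells was at 0.315 to 1.04 FPKM in shControl and 0.224 to 0.630 FPKM in shEphexin1, and LYZ of myeloid cells at 0.0823 to 0.911 and 0.392 to 1.47 FPKM, both with overlap. TEAD2 lies on the other strand of the CD37 interval, and the sources used here do not say whether the counting used strand.

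UPK1A pairs with UPK2 in the plaques of the urothelium. It was at 0.342, 0.164 and 0.217 FPKM in shControl, against 0.818, 0.580 and 0.495 FPKM in shEphexin1. All 3 shEphexin1 values were higher, at a level under 1 FPKM (log2 fold change 1.11, SE 0.304, limma adjusted p = 0.0745). With each library corrected for GC content and transcript length, UPK1A was called (log2 fold change 1.19, adjusted p = 0.0227). Of the 19 other fits that tested UPK1A, 3 called it, and with 1 FPKM added its log2 fold change was 0.39. Its sister UPK1B, the partner of UPK3A, overlapped between the groups, at 0 to 0.159 FPKM in shControl and 0.0853 to 0.108 FPKM in shEphexin1. UPK1A-AS1 lies on the other strand of the UPK1A interval.

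TSPAN8 is a tetraspanin of gastrointestinal epithelium that many carcinomas express. It was at 0.107, 0.128 and 0.120 FPKM in shControl and was listed at 0 in all 3 shEphexin1 libraries, so no fold is given. LGR5 lies on the other strand of its interval. On the log2 scale its fitted difference went from -0.16 with a pseudocount of 1 FPKM to -3.68 with 0.01 FPKM, and was -1.13 with the 0.1 FPKM used here (limma adjusted p = 0.0897). Of the 13 other genes tested within 1000000 bases on chromosome 12, 12 had a coefficient below 0 and 2 (KCNMB4 and TRHDE, named for their values) were called.

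TSPAN6, which takes part in the sorting of cargo into exosomes, was at 8.13, 8.73 and 7.40 FPKM in shControl, against 4.94, 6.71 and 3.89 FPKM in shEphexin1. The shEphexin1 libraries were lower, with replicate 2 closest to shControl. The log2 fold change was -0.66 (SE 0.206, limma adjusted p = 0.103).

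TSPAN10, a member of the TspanC8 subgroup known from pigment cells, was at 0.317, 0.128 and 0.432 FPKM in shControl, against 0.621, 0.599 and 0.860 FPKM in shEphexin1. All values stayed under 1 FPKM and the groups did not overlap. The log2 fold change was 1.09 (SE 0.358, limma adjusted p = 0.123). With the same GC and length correction TSPAN10 was called (log2 fold change 1.02, adjusted p = 0.024). Of the 19 other fits that tested TSPAN10, this was the 1 that called it. With 1 FPKM added its log2 fold change was 0.39. NPLOC4 lies on the other strand of the TSPAN10 interval.

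The tetraspanins of exosomes and integrin complexes (CD9, CD63, CD81, CD82 and CD151) are the most abundant set, with a summed FPKM of 941, 765 and 987 in shControl and 995, 774 and 1003 in shEphexin1. Of the 5, CD82 was called and the other 4 were not. CD63 was at 537, 448 and 552 FPKM in shControl, against 443, 360 and 441 FPKM in shEphexin1. Every shEphexin1 library was lower, the highest of them at 443 FPKM just under the lowest shControl library at 448 FPKM. The log2 fold change was -0.31 (SE 0.131, limma adjusted p = 0.216), and under quantile normalization it was 0.07, with the opposite sign. Of the 48 other genes tested within 1000000 bases of CD63, 36 had a coefficient below 0 and 12 above, with a median of -0.30. With the arm medians subtracted, the coefficient of CD63 was -0.14. The part of its region in the CD63 difference was not tested. CD9, known from the fusion of egg and sperm and from many epithelia, was at 178, 147 and 173 FPKM in shControl, against 202, 180 and 180 FPKM in shEphexin1. Its groups did not overlap, but by a narrow margin (log2 fold change 0.18, SE 0.113, limma adjusted p = 0.408). CD151, the partner of laminin-binding integrins, was at 151, 113 and 176 FPKM in shControl, against 196, 135 and 219 FPKM in shEphexin1. CD81, found on many cell types, was at 54.1, 41.7 and 61.0 FPKM in shControl, against 69.9, 43.9 and 67.1 FPKM in shEphexin1. For CD151 and CD81 the groups overlapped, with replicate 2 the lowest library of each group, and the 95% intervals of the log2 difference ran from -0.21 to 0.84 and from -0.31 to 0.70. CD63-AS1, CD81-AS1 and POLR2L lie on the other strand of the intervals of CD63, CD81 and CD151.

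The TspanC8 subgroup (TSPAN5, TSPAN10, TSPAN14, TSPAN15, TSPAN17 and TSPAN33) carries the metalloprotease ADAM10 from the endoplasmic reticulum to the surface and sets which substrates it cuts. Its summed FPKM was 54.6, 46.7 and 58.4 in shControl and 60.7, 49.9 and 60.5 in shEphexin1, with overlap. None of the 6 members was called, 3 had a coefficient above 0 and 3 below, and 1 (TSPAN10) had an unadjusted p under 0.05. TSPAN17 held 51.3% ± 3.99 (SD, n = 3) of the subgroup's FPKM in shControl and 52.6% ± 4.22 in shEphexin1. It was at 27.6, 22.3 and 32.5 FPKM in shControl, against 32.4, 23.97 and 34.1 FPKM in shEphexin1, which overlap. TSPAN5, the next in level, was at 13.1, 14.0 and 13.3 FPKM in shControl, against 15.5, 15.7 and 14.3 FPKM in shEphexin1. Its groups did not overlap, yet the difference was small (log2 fold change 0.17, SE 0.106, limma adjusted p = 0.384). TSPAN14 also did not overlap, at 4.15 to 4.83 FPKM in shControl and 3.81 to 4.003 FPKM in shEphexin1 (adjusted p = 0.451). TSPAN15 and TSPAN33 overlapped, at 5.72 to 8.44 against 5.56 to 8.04 FPKM and at 0.433 to 0.849 against 0.198 to 0.604 FPKM. The share of TSPAN10 in the subgroup was 0.531% ± 0.236 in shControl and 1.22% ± 0.199 in shEphexin1 (SD, n = 3).

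The other abundant members overlapped between the groups. TSPAN4 was at 75.7, 56.1 and 83.7 FPKM in shControl, against 88.8, 56.9 and 97.4 FPKM in shEphexin1. TSPAN3, a widely expressed member, was at 27.3, 25.6 and 27.6 FPKM in shControl, against 29.5, 27.5 and 28.7 FPKM in shEphexin1. TSPAN3 had the narrowest 95% interval of the 28 members, from -0.14 to 0.32 on the log2 scale. Among the members between 1 and 10 FPKM, TSPAN9 was close to equal, at 4.43 to 8.25 FPKM in shControl and 4.68 to 7.88 FPKM in shEphexin1, with an interval of its log2 difference from -0.64 to 0.67. TSPAN1, TSPAN13 and TSPAN31 overlapped as well, with log2 fold changes of -0.25, 0.43 and -0.28. The photoreceptor genes PRPH2 and ROM1 overlapped at 0.169 to 0.459 FPKM and at 0.654 to 1.94 FPKM over the 6 libraries. TSPAN11 and TSPAN19 were under 1 FPKM in all 6 libraries, and their intervals (-0.66 to 0.87 and -1.19 to 1.43) allowed a fold of more than 1.5 in either direction.

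Some chromosome arms differed as a whole between the groups, and several members lie on such arms. The median log2 fold change was -0.43 over the 170 expressed genes of 12p, where CD9, TSPAN9 and TSPAN11 lie, and -0.30 over the 354 of 10q, where TSPAN14 and TSPAN15 lie. It was 0.30 over the 408 of 7q, where TSPAN12 and TSPAN33 lie. The coefficients of CD9, TSPAN9 and TSPAN11 (0.18, 0.01 and 0.11) stood above the median of their arm. TSPAN33 stood below its arm at -0.66 (SE 0.397), while 20 of the 22 other genes tested within 1000000 bases of it had a coefficient above 0. With the arm medians subtracted, CD82 (1.88, adjusted p = 0.00929) and TSPAN7 (-1.67, adjusted p = 0.0217) were called as before, and the coefficient of CD9 was 0.61 (adjusted p = 0.0320), under a fold of 2.

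The libraries of replicate 2 stood apart in a way that followed base composition. Of the 28 members, 13 were lowest in replicate 2 of both groups, among them CD63, CD81, CD82, CD151 and TSPAN4, and the GC content of their transcripts was between 47.5 and 65.0%. The 4 members highest in replicate 2 of both groups (TSPAN5, TSPAN6, TSPAN12 and TSPAN13) had a GC content between 38.6 and 43.99%. Across the 28 members, the deviation of replicate 2 from its group and the GC content had a Spearman correlation of -0.76 in shControl and -0.76 in shEphexin1, given as a description since the points share libraries. With replicates 1 and 3 alone, CD82 (1.96, adjusted p = 0.00146) and TSPAN7 (-1.91, adjusted p = 0.0146) were called, together with TSPAN12.

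Genes known to work with tetraspanins were read from the same fit. The lists held 94 genes, of which 80 were tested and 4 were called, CLDN1 and TM4SF18 downward and NOTCH1 and SDC1 upward, where 1.89% of all genes tested were called. In 29 of the 80 the groups did not overlap, 21 higher and 8 lower, against 28.3% of all genes tested. Among the 29, EPCAM passed the filter through shEphexin1 alone and TM4SF20 through shControl alone, so these genes had to differ for that reason. The median log2 fold change of the 80 was 0.04. Of the genes in the lists, TM4SF4 was too low to be tested, and UPK3B was tested and not called.

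Among the lateral partners (27 listed, 20 tested, 1 called), CLDN1, a tight junction protein that binds CD9 and CD81, was at 8.17, 8.36 and 6.91 FPKM in shControl, against 2.32, 3.12 and 2.41 FPKM in shEphexin1. It fell by 1.55 on the log2 scale (SE 0.165, limma adjusted p = 0.00385), with no overlap. The integrin subunits that CD151 binds were abundant, ITGA3 at 318 and 248 FPKM, ITGA6 at 151 and 124 FPKM and ITGB1 at 542 and 563 FPKM (means of shControl and shEphexin1), and none of them was called. The log2 fold changes were -0.37 for ITGA3 (adjusted p = 0.272), -0.29 for ITGA6 (adjusted p = 0.195) and 0.05 for ITGB1 (adjusted p = 0.855). IGSF8, a direct partner of CD9 and CD81, was at 0.745 to 1.79 FPKM in shControl and 1.98 to 2.90 FPKM in shEphexin1, without overlap (log2 fold change 0.95, SE 0.320, adjusted p = 0.129). PTGFRN, the other direct partner of this kind, was listed at 0 in all 6 libraries. MET, the receptor of hepatocyte growth factor, whose signalling CD82 is known to dampen, passed the adjusted p (0.0122) at a log2 fold change of 0.86, under a fold of 2. MET lies on chromosome arm 7q, whose 408 expressed genes had a median of 0.30, and a link of its difference to CD82 was not tested.

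Of the ADAM10 axis (14 listed, 12 tested), NOTCH1, a receptor that ADAM10 cleaves, was called. Its shControl libraries held 1.21, 1.0997 and 1.33 FPKM and its shEphexin1 libraries 3.21, 2.91 and 3.86 FPKM. NOTCH1 rose by a log2 fold change of 1.37 (SE 0.176, limma adjusted p = 0.00765). In 7 of the 12 the groups did not overlap, all of them higher in shEphexin1, against 28.3% of all genes tested (12.8% higher). Those 7 include ADAM17, another protease, and RHBDF1 and RHBDF2, so the list is wider than ADAM10 and its substrates. ADAM10 itself overlapped, at 28.5 to 36.2 FPKM in shControl and 30.7 to 40.6 FPKM in shEphexin1 (log2 fold change 0.17, SE 0.145, adjusted p = 0.559).

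Of the 21 genes of exosome biogenesis, all were tested and SDC1, a syndecan that binds syntenin, was called. It was at 9.85, 7.49 and 11.3 FPKM in shControl, against 23.1, 16.3 and 24.1 FPKM in shEphexin1 and rose by a log2 fold change of 1.14 (SE 0.207, limma adjusted p = 0.0230). The other 20 were not called, and the median of the list was -0.07. Of the 21 palmitoyltransferases tested (23 listed), enzymes of the class that puts lipid on tetraspanins, none was called, though ZDHHC4 passed the adjusted p (0.0093) at a log2 fold change of -0.88. The L6 family resembles tetraspanins in topology and is separate from them in sequence. Of its 4 members tested (6 listed), TM4SF18 was called, from 0.757, 1.33 and 0.712 FPKM in shControl to 0.141, 0.272 and 0.133 FPKM in shEphexin1. It fell by 1.86 on the log2 scale (SE 0.330, limma adjusted p = 0.0215), with no overlap. The uroplakin partners (3 listed, 2 tested) had no call. The 4 calls of these lists rested on single libraries in part, since none of them was made without shControl replicate 1 or without shEphexin1 replicate 1, and 7 genes were called without shEphexin1 replicate 2. Without shControl replicate 2, 2 were called, and without shControl replicate 3 or shEphexin1 replicate 3, 1 was.

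**Figure D3:**
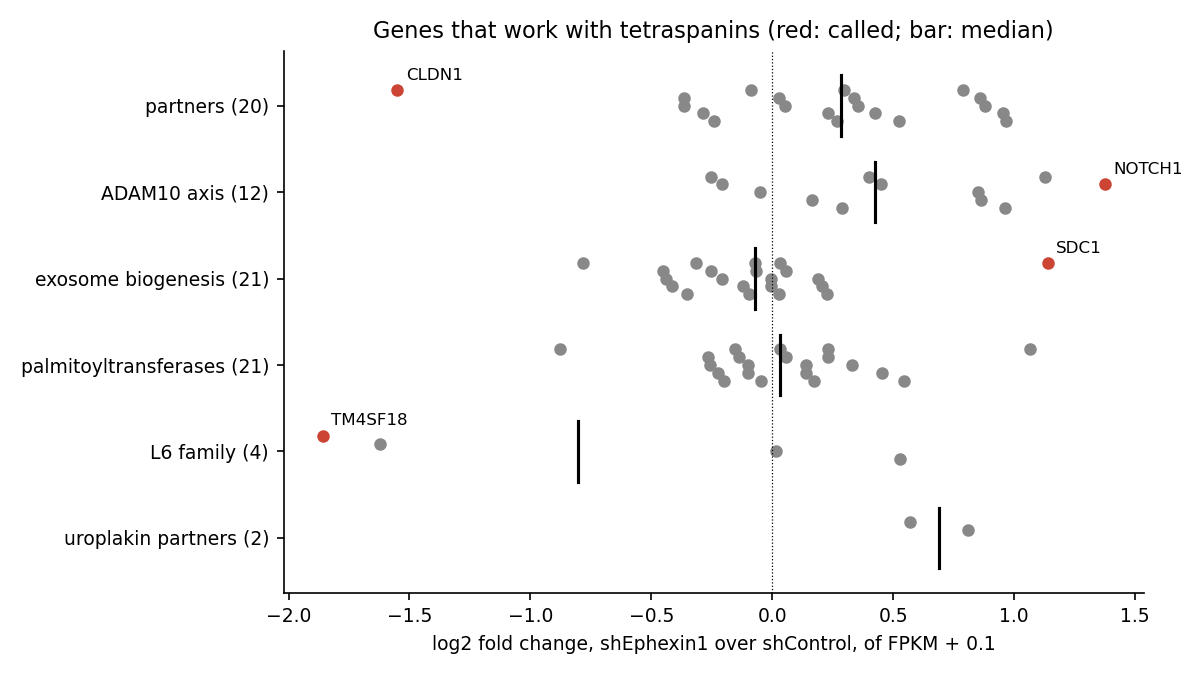
Log2 fold change of FPKM + 0.1 (shEphexin1 over shControl) of the 80 tested genes of 6 lists, a point for each gene with called genes in red and named, and the list median as a black bar. The number tested is in parentheses after each list's name, and the ADAM10 axis has 9 of its 12 points above 0.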

How the data were processed

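RNA-seq values of H1299 cells were used, from 3 shControl libraries and 3 shEphexin1 libraries. The authors mapped reads to GRCh37/hg19 with TopHat 2.0.13 and deposited FPKM values from Cuffdiff 2.2.1 with geometric library normalization (versions also per the submitters' processing notes). The gene annotation is not given in the sources used here. All 6 value columns were used and 0 were left out. Depth is unknown, so no counting error is given.

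FPKM values were transformed as log2(FPKM + 0.1), which understates the folds of low genes. The 16020 genes that reached 0.1 FPKM in 3 or more libraries were fitted with limma 3.58.1 in R 4.3.3 (lmFit, eBayes with trend), with Benjamini-Hochberg adjustment over all of them. A call needed an adjusted p no higher than 0.025 together with a fold of 2 or more. Exact permutation tests were two-sided, with 0.1 as the smallest p for 3 against 3. Positions and chromosome arms came from GENCODE release 44 on GRCh37 and promoters from RefSeq on GRCh38.p14. The fit was tested on simulated data. The family members and gene lists were chosen with earlier results of these data known.

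Members were named when called, when the unadjusted p was under 0.05 or when a group mean was at least 10 FPKM, and the others are given by range. Of the lists, the called genes and ADAM10, ITGB1, ITGA3, ITGA6, PTGFRN, IGSF8 and CLDN1 were named by rule. MET, ZDHHC4, UPK3B, TM4SF4, EPCAM, TM4SF20, ADAM17, RHBDF1 and RHBDF2 were named after their values were seen. The alternatives were other pseudocounts, filters, scalings, variance settings, a replicate block, a term for replicate 2, a correction for GC content and length, chromosome arm medians, other thresholds and each library left out. Python 3.11.15 with pandas 2.3.3, scipy 1.17.1 and matplotlib 3.10.9 was used for the rest. Some marker genes are not reported here.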

Additional observations from a re-analysis of the deposited data

How the results depend on the processing

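Over 20 other fits, CD82 was called in 17 and TSPAN7 in 14, both with an unchanged sign. The number of tetraspanins called was 1 with a pseudocount of 1 FPKM (139 of all genes called, 2 of the listed partner genes) and 4 with the GC and length correction (CD82, TSPAN7, UPK1A and TSPAN10; 555 of all genes), and the TSPAN7 difference with 1 FPKM was -0.94. With a pseudocount of 0.01 FPKM, 2 partner genes were called. With each library left out, 0 to 2 tetraspanins, 0 to 7 partner genes and 61 to 316 of all genes were called, and TSPAN7 was between -1.94 and -1.50. The count of all genes was 464 at an adjusted p of at most 0.05, 546 with no fold threshold and 564 with a term for replicate 2. TSPAN8 was called with no filter and with eBayes without trend.

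Same-numbered libraries deviated together with correlations of 0.09, 0.43 and 0.33, and since not all were over 0.1, the numbers were not taken to pair the libraries. As a hint from the data, each library correlated best with its own number. With a replicate block, 556 of all genes were called (303 of them shared with the fit without it), and 546 with the GC correction and the block together. In both block fits CD82, TSPAN7 and UPK1A were called. NGEF was under a fold of 2 in all 20 fits, with adjusted p values of 0.00284 with the block, 0.00572 with a term for replicate 2, 0.00175 with the GC correction, 0.00168 with the GC correction and the block, and 0.0338 to 0.268 in the others.

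Of 552 values of members under these fits, 27 in 10 members changed sign, none of them a call, and the cause was not tested. With 1 FPKM added, TSPAN19 was at -0.025 and UPK1B at -0.0095. Under quantile normalization, CD63 was at 0.067, TSPAN11 at -0.056, TSPAN19 at -0.027 and UPK1B at -0.090. TSPAN9 was at -0.042 with the GC correction, with and without the block, and at -0.020 with replicates 1 and 3 alone, where ROM1 was at 0.13. With arm medians subtracted, TSPAN14 was at 0.12 and TSPAN15 at 0.24. With single libraries left out, the ranges that crossed 0 were -0.20 to 0.078 (TSPAN15), -0.35 to 0.77 (TSPAN19), -0.40 to 0.29 (UPK1B), -0.0051 to 0.29 (TSPAN17), -0.012 to 0.39 (TSPAN4), -0.25 to 0.24 (TSPAN9), -0.52 to 0.19 (ROM1) and -0.022 to 0.18 (TSPAN11). The reads behind each value are unknown.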
